A study of Mus musculus with 9 samples.

Results

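The 34 genes described here encode parts of the T cell receptor signalling machinery. They are the receptor's CD3 and zeta chains with the Cd4 coreceptor, the kinases and adaptors beside the membrane, the enzymes further down, the NFAT transcription factors, and the phosphatases, ubiquitin ligases and lipid kinases that restrain the pathway. They were taken by gene symbol from a list chosen with earlier results of these data known. All 34 were found among the 26683 genes of the count table, and all 34 were among the 12738 genes abundant enough to be tested. RNA was sequenced from regulatory T cells (Treg cells, the CD4-positive T cells that suppress other immune cells) of mouse spleen, sorted by a Foxp3 reporter.

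The 5 control mice (WT) were of strain B6N.Foxp3YFP-Cre, in which Cre recombinase and a yellow fluorescent protein are produced from the Foxp3 gene. The 4 knockout mice (KO) were of strain EsrrgNf/f.Foxp3YFP-Cre and carried the same Foxp3 construct together with floxed Esrrg, the gene of the nuclear receptor estrogen-related receptor gamma. All mice were labelled female and 2 to 3 months of age, and each library came from 1 mouse, with no pooling. Since Foxp3 drives Cre in both groups, the groups share Cre and the reporter, and recombination is directed to Foxp3-expressing cells. The labels do not state the genetic background of the KO mice, so any difference of background or colony cannot be told apart from genotype.

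Antigen binding to the T cell receptor lets the kinase Lck phosphorylate the CD3 and zeta chains, which then recruit and activate the kinase Zap70. Zap70 phosphorylates the adaptors Lat and Lcp2, and these assemble enzymes that release calcium and make diacylglycerol, from which NFAT, NF-kappaB and Ras signalling follow. Treg cells need this receptor to develop and to suppress, and inhibitory phosphatases, ligases and diacylglycerol kinases set how strongly it signals.

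Some libraries stood apart, and these facts touch the values below. Total counts ran from 15269014 to 17425634, and Esrrg had 0 counts in all 9 libraries, so the genotype labels could not be checked. The 4 Treg cell markers Foxp3, Il2ra, Ctla4 and Ikzf2 summed to 2769 to 2982 CPM (counts scaled to library size, with edgeR's trimmed-mean factors) in WT and 2675 to 2895 CPM in KO. The 5 plasma cell markers in the table summed to 869 to 1079 CPM in WT, 965 and 1250 CPM in KO 2 and KO 3, 1876 CPM in KO 1 and 4349 CPM in KO 4. The 5 myeloid markers reached 58.0 CPM in KO 1 and 94.6 CPM in KO 4, against 11.2 to 51.3 CPM in WT, and of them S100a9 was at 0 in 1 library. B cell markers summed to at most 30.9 CPM, CD8 T cell markers to 13.7 CPM, erythroid markers to 16.1 CPM and natural killer cell markers to 7.12 CPM in any library. In these 7 marker lists, 0 genes passed edgeR's test at an adjusted p of 0.05, though all 4 tested plasma cell markers and 1 marker each of the Treg, B and myeloid lists had an unadjusted p under 0.05. DESeq2 passed 2 of these genes, the plasma cell markers Jchain and Igkc, and voom with sample weights 1 Treg marker. KO 4 held 27 counts of Xist, the RNA of the inactive X chromosome, against 27355 or more in each other library, which goes against its label as female. WT 1 had 1078 CPM of the immediate early gene Fos, against 20.9 to 71.8 CPM in the other WT libraries. Results are therefore also given without KO 1 and KO 4, a comparison chosen after the data were seen. In bulk RNA, fewer cells of a type and less RNA per cell cannot be told apart.

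Between KO and WT, 2 of the 34 genes passed an adjusted p of 0.05 (edgeR's quasi-likelihood test, Benjamini-Hochberg adjustment over all 12738 genes). Ptpn7, a phosphatase of MAP kinases, was higher in KO, and Camk4, a calcium-activated kinase, was lower. Of all tested genes, 3.28% passed, 1.40% higher and 1.88% lower, so a count of 1 in each direction among 34 lies near the background. The log2 fold change (KO over WT) was above 0 for 20 of the 34 genes and below 0 for 14, with a median of 0.03, against 51.5% above 0 and a median of 0.0052 for all tested genes. At an unadjusted p under 0.05 there were 14 of the 34, 9 higher and 5 lower, where the same threshold took 21.6% of all genes. The CPM values of the groups did not overlap for 4 genes higher in KO (Cd3e, Cd3g, Cd5 and Ptpn7) and for 1 lower (Camk4), against 4.15% and 4.92% of all genes and 9.07% in either direction. Without KO 1 and KO 4, 0 of the 34 passed edgeR's test and 8 had an unadjusted p under 0.05, against 0.908% and 14.0% of the 12998 genes tested in that fit. There, 24 of the 34 had a fold change above 0, against 49.0% of all genes, and the median was 0.07.

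The differences were small in every role. Fold changes ran from -0.25 to 0.23 on the log2 scale over the 34 genes. The widest interval, the log2 fold change ± 2 SE, was that of the adaptor gene Grap2, from -0.25 to 0.04. A gene that missed the threshold is therefore not shown to be equal in the groups. In edgeR's test on simulated counts for the same 12738 genes and group sizes, 24% of 50 genes set to a 1.2-fold change passed, 78% at 1.5-fold and 100% at 2-fold. The changed genes were drawn at random from all those with a mean CPM of at least 5. These shares are therefore not specific to the 34 genes.

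**Figure D1:**
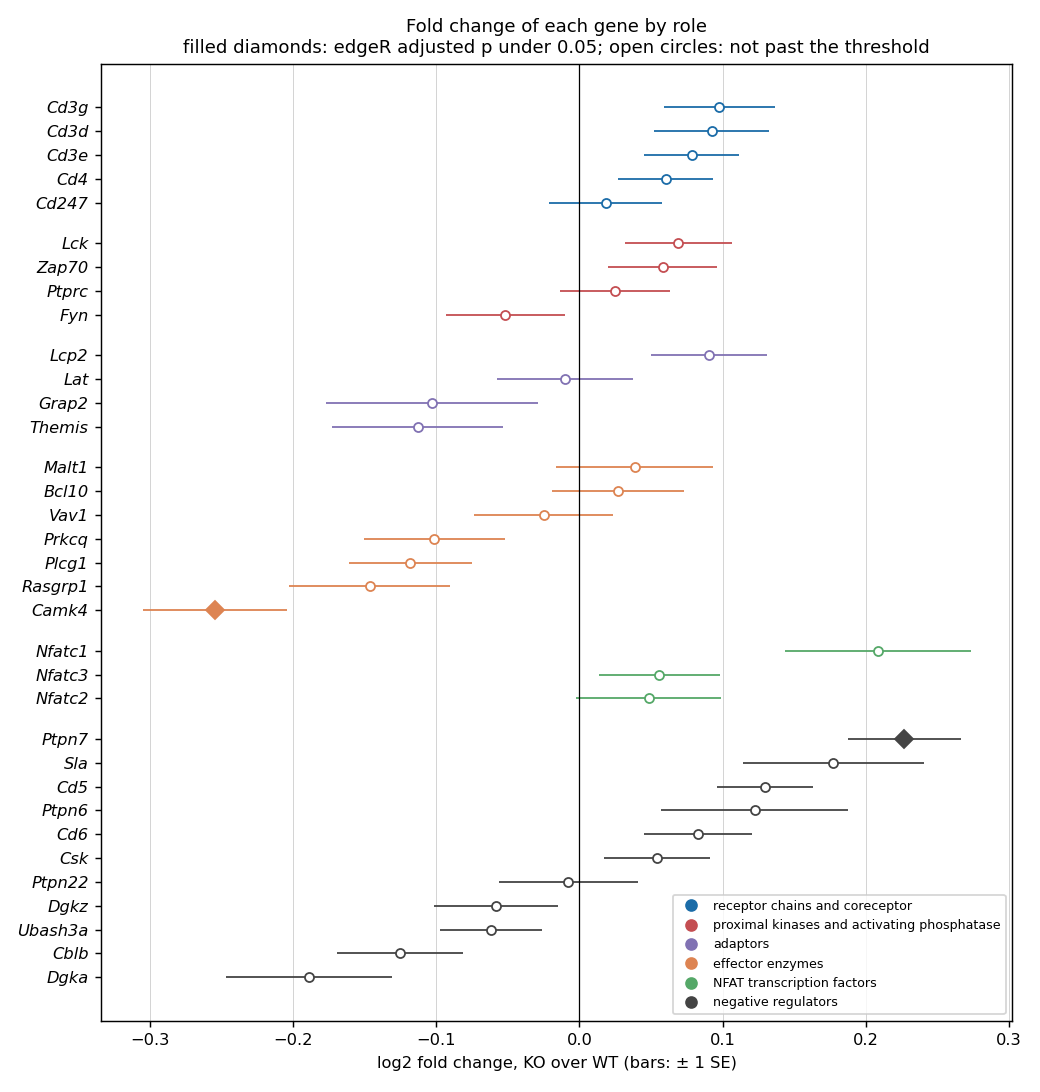
Log2 fold change of each of the 34 genes, KO over WT, with bars of ± 1 SE, grouped by role along the vertical axis (n = 5 and 4). The 2 filled diamonds are Camk4 at -0.25 and Ptpn7 at 0.23, and all 5 receptor genes lie to the right of 0 without passing the threshold.

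The order of transcript levels was read per kilobase of the longest annotated transcript, since longer transcripts give more counts. Which transcripts of a gene were expressed was not examined, so the order depends on this choice of length. By CPM alone, Ptprc (2728 CPM in WT) was above Dgka (1526 CPM), and Bcl10 (65.4 CPM) was below Themis (76.1 CPM). In WT, Dgka, which encodes a kinase that removes diacylglycerol, came first at 538 CPM per kb. Ptprc, the CD45 phosphatase, followed at 475 CPM per kb, Lck at 424 CPM per kb, Cd4 at 297 CPM per kb and Lat at 256 CPM per kb. The lowest were Malt1 (24.1 CPM per kb), Ubash3a (23.0 CPM per kb), Nfatc2 (21.8 CPM per kb) and Themis (14.97 CPM per kb). Of the 33 neighbouring pairs in this order, 17 overlapped in their WT ranges, among them Dgka and Ptprc, and Cd3e and Cd3g. Both genes of a pair were measured in the same libraries, and pairs were not compared within libraries. Overlap of the ranges therefore does not show that such genes are equal. The WT ranges were separate at the steps from Ptprc to Lck, Lck to Cd4, Cd4 to Lat and Lat to Cd5. Every gene was well measured, with 987 to 47728 counts in a library. The coefficient of variation of CPM among the 5 WT libraries ran from 1.04% to 7.02% over the 34 genes, with a median of 3.34%.

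**Figure D2:**
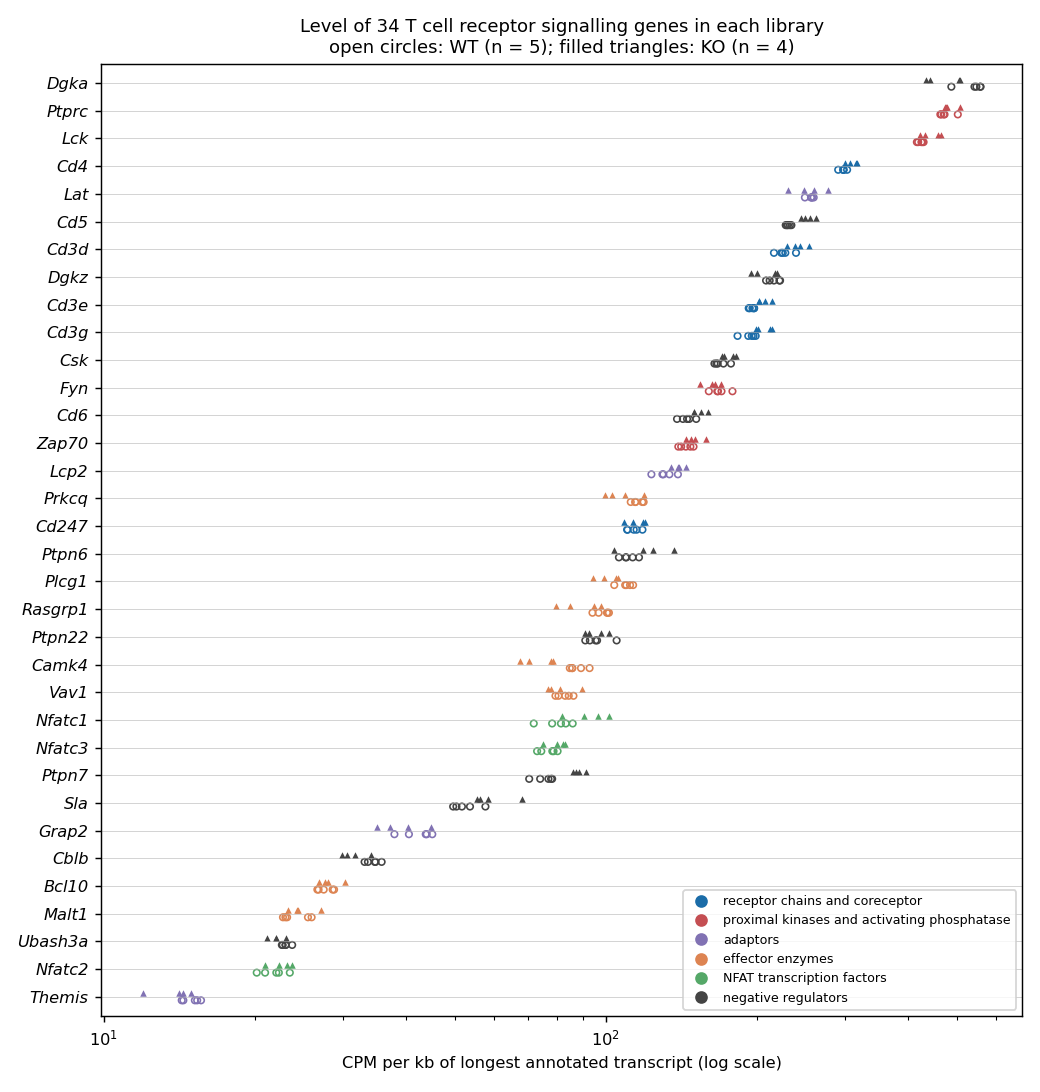
CPM per kb of longest transcript (log axis) in each library for the 34 genes, ordered by the WT mean, with open circles for WT (n = 5) and filled triangles for KO (n = 4). Dgka, Ptprc and Lck stand at the top at 424 to 538 CPM per kb in WT and Themis at the bottom at 14.97 CPM per kb, and the triangles lie beside the circles of the same gene.

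The genes of the receptor's signalling chains were each somewhat higher on average in KO, and 0 of the 5 passed the threshold with edgeR or DESeq2, 3 of them having an unadjusted p under 0.05. Their log2 fold changes ran from 0.02 to 0.10 with a median of 0.08, and from 0.06 to 0.10 without KO 1 and KO 4. Cd3e, whose chain pairs with the CD3 gamma and delta chains, had 503, 499.6, 503, 491 and 493 CPM in WT 1 to WT 5 and 528, 514, 548 and 515 CPM in KO 1 to KO 4. All 4 KO libraries stood above all 5 WT libraries, which were close together. The means were 498 ± 5.67 CPM in WT and 526 ± 15.7 CPM in KO (SD, n = 5 and 4), a log2 fold change of 0.08 ± 0.03 (SE, adjusted p = 0.193). Cd3g, the CD3 gamma chain, had 496, 505, 465, 499.9 and 488 CPM in WT 1 to WT 5 and 539, 510.1, 545 and 505 CPM in KO 1 to KO 4. KO 4 exceeded the highest WT library, WT 2, by less than 1 CPM, so the separation of the groups was thin. Cd3g averaged 491 ± 15.8 CPM in WT and 525 ± 20.1 CPM in KO (SD, n = 5 and 4), a log2 fold change of 0.10 ± 0.04 (SE, adjusted p = 0.172). The delta chain gene Cd3d overlapped between the groups (366 CPM in WT, 390.3 CPM in KO, log2 fold change 0.09, adjusted p = 0.205).

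Cd3g, Cd3d and Cd3e are neighbours on chromosome 9 of GRCm38, and their start regions are shown because the 3 genes had fold changes of like size. Cd3g (44969572 to 44980431, minus strand) and Cd3d (44981786 to 44987339, plus strand) start 1355 bases apart in opposite directions, and Cd3e (44998740 to 45009627, minus strand) ends 11401 bases from Cd3d. The windows run from 250 bases before to 50 bases after each start, from RefSeq (build GRCm38.p6), with the ETS core GGAAG in capitals, read as CTTCC where it lies on the other strand. The Cd3g window is chr9:44980382-44980681 (minus strand), the Cd3d window chr9:44981536-44981835 (plus strand) and the Cd3e window chr9:45009562-45009861 (minus strand).
Cd3g: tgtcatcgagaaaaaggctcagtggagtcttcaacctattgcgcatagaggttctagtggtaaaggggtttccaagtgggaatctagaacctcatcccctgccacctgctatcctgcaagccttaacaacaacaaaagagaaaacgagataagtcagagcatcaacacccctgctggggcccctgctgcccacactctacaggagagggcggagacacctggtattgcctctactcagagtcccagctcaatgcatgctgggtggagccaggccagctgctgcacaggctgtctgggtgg
Cd3d: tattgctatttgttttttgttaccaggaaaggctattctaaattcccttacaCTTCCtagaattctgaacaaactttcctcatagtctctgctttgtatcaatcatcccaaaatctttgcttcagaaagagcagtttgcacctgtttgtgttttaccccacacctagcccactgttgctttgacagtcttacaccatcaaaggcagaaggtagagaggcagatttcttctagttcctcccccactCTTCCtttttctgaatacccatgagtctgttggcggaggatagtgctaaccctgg
Cd3e: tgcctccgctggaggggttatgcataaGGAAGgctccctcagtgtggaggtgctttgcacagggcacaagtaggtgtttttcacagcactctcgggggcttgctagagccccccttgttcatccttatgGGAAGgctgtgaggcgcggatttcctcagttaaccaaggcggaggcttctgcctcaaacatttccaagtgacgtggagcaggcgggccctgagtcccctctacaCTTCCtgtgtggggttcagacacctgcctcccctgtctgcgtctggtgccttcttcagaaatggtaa
The core was found 0 times in the Cd3g window, 2 times in the Cd3d window and 3 times in the Cd3e window. Such a match describes letters and shows no binding. The core is short and was present in 71.4% of the 32851 mouse windows of this length.

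The remaining receptor genes differed less. Cd4, whose product brings Lck to the receptor, had 940.0, 925, 902, 924 and 924 CPM in WT 1 to WT 5 and 986, 952, 980.3 and 931 CPM in KO 1 to KO 4. KO 4 lay within the WT range, while KO 1, KO 2 and KO 3 lay above it. Its means were 923 ± 13.4 CPM in WT and 962 ± 25.6 CPM in KO (SD, n = 5 and 4), with a log2 fold change of 0.06 ± 0.03 (SE, adjusted p = 0.309). Cd247, the zeta chain, was nearly level (336 CPM in WT, 340.1 CPM in KO, log2 fold change 0.02, adjusted p = 0.824). Cd247 overlaps Pou2f1 on the opposite strand, which had 97.9 CPM in WT.

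Of the proximal kinases and the activating phosphatase, 0 of 4 passed the threshold with edgeR or DESeq2, 0 had an unadjusted p under 0.05, and 3 of 4 had a fold change above 0 (median 0.04). Lck, the Src-family kinase that begins signalling, had 939, 929, 916, 910.0 and 934 CPM in WT 1 to WT 5 and 943, 1001, 1016 and 924 CPM in KO 1 to KO 4. KO 2 and KO 3 were the highest libraries, whereas KO 4 fell within the WT range and KO 1 lay just above it. Lck averaged 925 ± 12.2 CPM in WT and 971 ± 44.3 CPM in KO (SD, n = 5 and 4), a log2 fold change of 0.07 ± 0.04 (SE, adjusted p = 0.299), and 0.12 without KO 1 and KO 4. Zap70, the kinase that binds the phosphorylated chains, had 331, 336, 317, 313 and 324 CPM in WT 1 to WT 5 and 356, 325, 331 and 338 CPM in KO 1 to KO 4. KO 2 and KO 3 lay inside the WT range and KO 1 was highest. The means of 324 ± 9.33 CPM in WT and 337 ± 13.4 CPM in KO (SD, n = 5 and 4) gave a log2 fold change of 0.06 ± 0.04 (SE, adjusted p = 0.396). Ptprc, which keeps Lck active by removing its inhibitory phosphate, had 2884, 2714, 2663, 2704 and 2674 CPM in WT 1 to WT 5 and 2714, 2739, 2918 and 2729 CPM in KO 1 to KO 4. In each group 1 library exceeded the rest, WT 1 and KO 3, and the groups overlapped. Ptprc averaged 2728 ± 90.0 CPM in WT and 2775 ± 96.0 CPM in KO (SD, n = 5 and 4), with a log2 fold change of 0.02 ± 0.04 (SE, adjusted p = 0.747). Fyn, a second Src-family kinase, was at 601 CPM in WT, 579.5 CPM in KO, log2 fold change -0.05 (adjusted p = 0.494).

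Zap70 was the only one of the 28 genes with a RefSeq start window to hold the extended element TNAAGGTCA (N, any base), the form bound by estrogen-related receptors, on either strand. The window is shown because Esrrg encodes such a receptor. It belongs to an alternative start inside the gene, 17186 bases downstream of the annotated gene start (GRCm38, chromosome 1, 36761798 to 36782818, plus strand). It lies at chr1:36778734-36779033 (plus strand, build GRCm38.p6), and the capitals mark the match, TGACCTTTA, on the opposite strand.
Zap70: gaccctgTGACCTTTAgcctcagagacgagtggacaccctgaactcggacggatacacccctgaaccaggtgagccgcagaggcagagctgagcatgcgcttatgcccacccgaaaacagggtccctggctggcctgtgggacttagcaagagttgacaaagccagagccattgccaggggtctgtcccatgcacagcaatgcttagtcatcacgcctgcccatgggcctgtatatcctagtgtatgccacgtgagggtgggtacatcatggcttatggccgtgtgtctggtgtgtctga
The element was in 1 of 42 windows of the 28 genes (2.38%) and in 1.28% of the 32851 windows in all. The RUNX element TGTGGT was in 4 of the 42 windows (9.52%, against 16.8% of all), and the ETS core in 35 (83.3%, against 71.4%). The windows of a gene can overlap, motifs were read on both strands, and no match says only that the letters are not in a window.

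The 4 adaptor genes gave values on both sides of 0, with a median of -0.06, and 0.04 without KO 1 and KO 4. With edgeR and with DESeq2 0 passed, and Lcp2 alone had an unadjusted p under 0.05. Lcp2, the adaptor that joins Lat to calcium signalling, had 507, 488, 449, 474 and 472 CPM in WT 1 to WT 5 and 527, 492, 510.0 and 507 CPM in KO 1 to KO 4. All KO libraries stood above 4 of the WT libraries, and only WT 1 overlapped with them. Its means were 478 ± 21.4 CPM in WT and 509 ± 14.4 CPM in KO (SD, n = 5 and 4) and its log2 fold change 0.09 ± 0.04 (SE, adjusted p = 0.217). Themis, a T cell protein that binds the Grb2 adaptor and phosphatases, had 79.4, 72.6, 73.2, 77.1 and 78.0 CPM in WT 1 to WT 5 and 73.2, 75.6, 71.7 and 60.8 CPM in KO 1 to KO 4. KO 4 was the lowest library, KO 3 lay just below the WT range, and KO 1 and KO 2 were within it. Themis averaged 76.1 ± 2.99 CPM in WT and 70.3 ± 6.54 CPM in KO (SD, n = 5 and 4), with a log2 fold change of -0.11 ± 0.06 (SE, adjusted p = 0.291), and -0.05 without KO 1 and KO 4. Lat, the membrane scaffold on which the complex forms, had 526, 512, 528, 533 and 529 CPM in WT 1 to WT 5 and 474, 569.9, 533 and 509 CPM in KO 1 to KO 4. The WT libraries were close together, while KO ran from the lowest of the 9 (KO 1) to the highest (KO 2). The means of 525 ± 8.05 CPM in WT and 522 ± 40.3 CPM in KO (SD, n = 5 and 4) gave a log2 fold change of -0.01 ± 0.05 (SE, adjusted p = 0.927), which was 0.07 without KO 1 and KO 4. Grap2, which links Lat to Lcp2, was at 231 CPM in WT, 215 CPM in KO, log2 fold change -0.10 (adjusted p = 0.445), and 0.01 without these libraries.

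**Figure D3:**
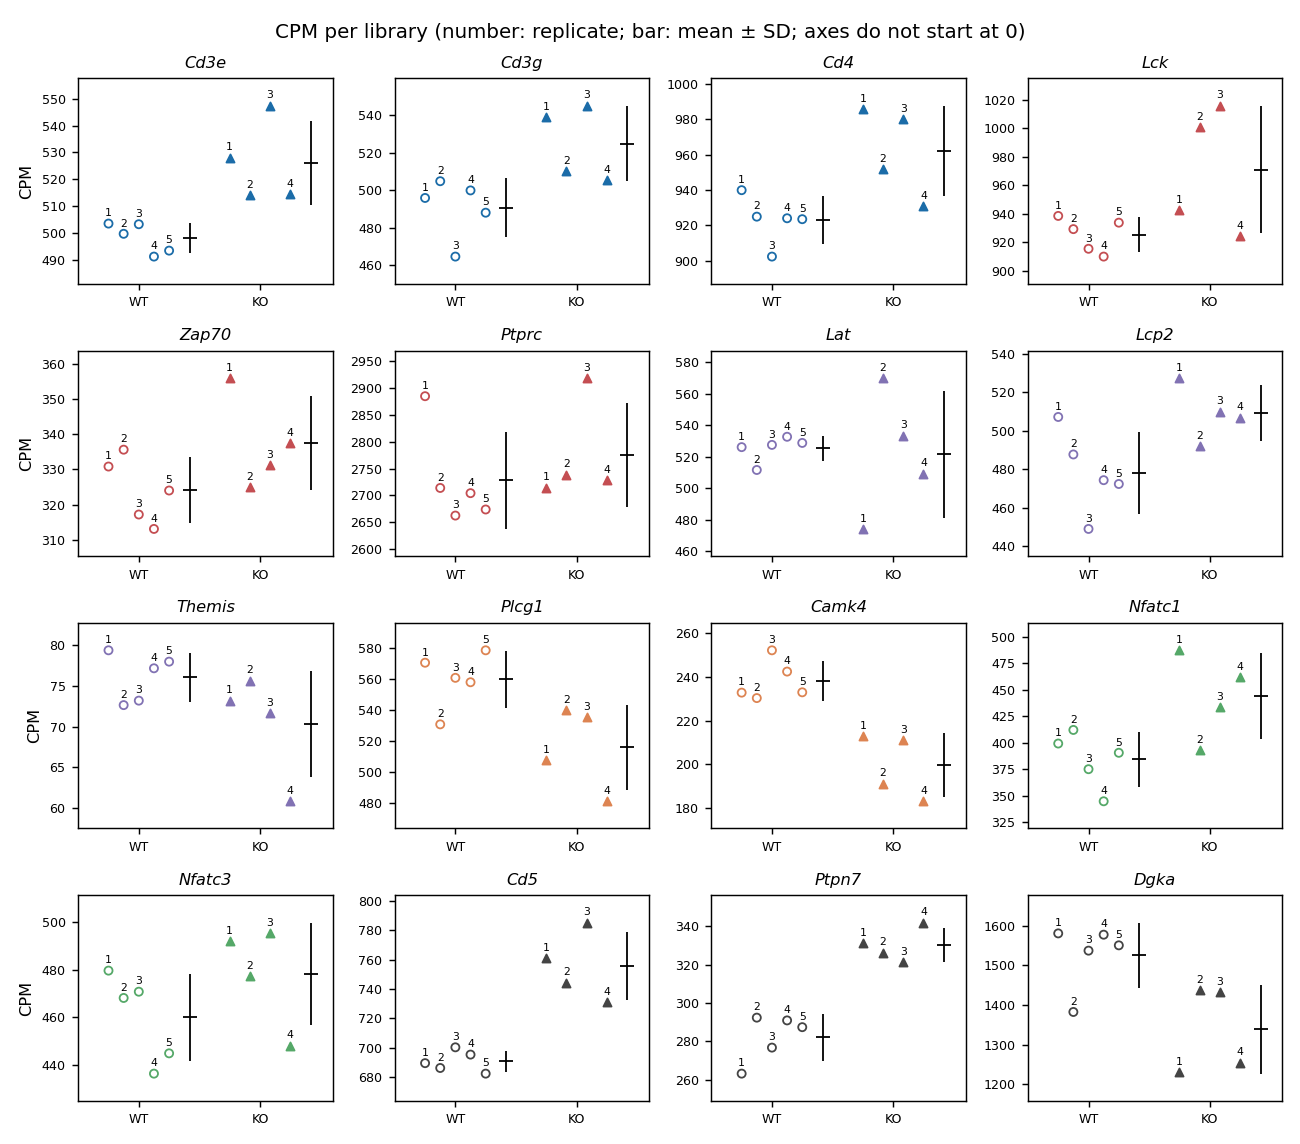
CPM of 16 of the 34 genes in each library (numbered by replicate), WT as open circles and KO as filled triangles, with a bar at the mean ± SD (n = 5 and 4), and axes that do not start at 0. Camk4 in KO lies below and Ptpn7, Cd5, Cd3e and Cd3g lie above every WT library, and the groups overlap in the other 11 panels.

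Camk4 was the only effector gene past the threshold. It encodes a calcium/calmodulin-dependent kinase that acts on transcription factors in the nucleus (GRCm38, chromosome 18, 32934931 to 33191228, plus strand), and it had 233, 230.3, 252, 242 and 233 CPM in WT 1 to WT 5 and 213, 191, 211 and 183 CPM in KO 1 to KO 4. Every KO library lay below every WT library, and the lowest were KO 4 and KO 2. Camk4 averaged 238 ± 9.10 CPM in WT and 199.6 ± 14.7 CPM in KO (SD, n = 5 and 4), and fell by 0.25 ± 0.05 on the log2 scale (SE, edgeR adjusted p = 0.0214). The fold change was also -0.25 without KO 1 and KO 4, where the adjusted p was 0.0658 in 5 against 2 libraries. The call was lost on leaving out WT 3 (adjusted p = 0.0695), WT 4 (0.0563), WT 5 (0.0545) or KO 4 (0.0686), and kept on leaving out any of the other 5 libraries. Camk4 overlaps 1 other gene of the table, on the opposite strand, at 0.0983 CPM in WT.

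The other effector genes had fold changes from -0.15 to 0.04, and 5 of all 7 effector genes were below 0. In edgeR's test 3 of the 7 had an unadjusted p under 0.05, all lower in KO, against 21.6% of all genes. Without KO 1 and KO 4 there was 1, against 14.0% of all genes. DESeq2 passed 1 of the 7, against 7.84% of all genes with an adjusted p. The median of the 7 was -0.10, and -0.02 without KO 1 and KO 4. Plcg1, the phospholipase that produces the calcium-releasing messenger and diacylglycerol, had 571, 531, 561, 558 and 579 CPM in WT 1 to WT 5 and 507, 540.0, 535 and 481 CPM in KO 1 to KO 4. KO 1 and KO 4 lay below all WT libraries, and KO 2 and KO 3 overlapped with WT 2. Plcg1 averaged 559.8 ± 18.2 CPM in WT and 516 ± 27.4 CPM in KO (SD, n = 5 and 4), with a log2 fold change of -0.12 ± 0.04 (SE, adjusted p = 0.14), and -0.06 without KO 1 and KO 4. Rasgrp1, the Ras activator that binds diacylglycerol, was at 516 CPM in WT, 466 CPM in KO, log2 fold change -0.15 (adjusted p = 0.158), and -0.04 without these libraries. Prkcq, the protein kinase C form of the T cell synapse, was at 459 CPM in WT, 428 CPM in KO, log2 fold change -0.10 (adjusted p = 0.253), and -0.02 without them. For these 3 genes the fold change was thus nearer 0 without the libraries of higher plasma cell and myeloid marker sums, whose part in the result was not tested. Vav1, an exchange factor for Rac, was at 245 CPM in WT, 241 CPM in KO, log2 fold change -0.02, and 0.04 without KO 1 and KO 4. Bcl10 (65.4 CPM in WT, 66.7 CPM in KO, log2 fold change 0.03) and Malt1 (154 CPM in WT, 158 CPM in KO, log2 fold change 0.04), which act together in NF-kappaB activation, had adjusted p-values of 0.772 and 0.722.

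The 3 NFAT genes, whose products move to the nucleus on calcium signals, all had fold changes above 0, and 0 passed edgeR's test, with Nfatc1 alone at an unadjusted p under 0.05. Nfatc1 had 399, 412, 375, 345 and 390.4 CPM in WT 1 to WT 5 and 487, 393, 433 and 462 CPM in KO 1 to KO 4. KO 1, KO 3 and KO 4 were above all WT libraries, and KO 2 was within the WT range. Nfatc1 averaged 384 ± 25.9 CPM in WT and 444 ± 40.5 CPM in KO (SD, n = 5 and 4), a log2 fold change of 0.21 ± 0.06 (SE, adjusted p = 0.0995). Without KO 1 and KO 4 the fold change was 0.10 (adjusted p = 0.537), and DESeq2 gave an adjusted p of 0.0363 with all libraries. Leaving out KO 2 alone, Nfatc1 passed edgeR's test at 0.26 (adjusted p = 0.0324). Nfatc3 had 479.6, 468, 471, 437 and 445 CPM in WT 1 to WT 5 and 492, 477, 495 and 448 CPM in KO 1 to KO 4. The groups overlapped, with KO 4 close to the lowest WT libraries, WT 4 and WT 5. Its means were 460.0 ± 18.3 CPM in WT and 478 ± 21.4 CPM in KO (SD, n = 5 and 4) and its log2 fold change 0.06 ± 0.04 (SE, adjusted p = 0.466). Nfatc2 was at 149 CPM in WT, 154 CPM in KO, log2 fold change 0.05 (adjusted p = 0.61).

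Among the 11 negative regulators, Ptpn7 passed the threshold, 6 fold changes were above 0 and 5 below, and the median was 0.05. In edgeR's test 6 of the 11 had an unadjusted p under 0.05, 4 higher and 2 lower, against 21.6% of all genes. Without KO 1 and KO 4 there were 4, against 14.0% of all genes. DESeq2 passed 3 of the 11, against 7.84% of all genes with an adjusted p. Ptpn7 encodes a phosphatase of blood cells that acts on MAP kinases (GRCm38, chromosome 1, 135132700 to 135145317, plus strand), and no other gene of the table overlaps it. It had 263, 292, 277, 291 and 287 CPM in WT 1 to WT 5 and 331, 326, 321 and 342 CPM in KO 1 to KO 4. Every KO library exceeded the highest WT library, WT 2, and WT 1 was the lowest of all. Ptpn7 averaged 282 ± 12.2 CPM in WT and 330.1 ± 8.86 CPM in KO (SD, n = 5 and 4), and rose by 0.23 ± 0.04 on the log2 scale (SE, edgeR adjusted p = 0.0133). It passed on leaving out any library but KO 4 (adjusted p = 0.0507). Without KO 1 and KO 4 the log2 fold change was 0.20 (adjusted p = 0.0838).

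The start window of Ptpn7 is shown because it was the gene of this pathway with the smallest p. It lies at chr1:135132450-135132749 (plus strand, RefSeq, build GRCm38.p6), and the capitals mark the ETS core on either strand.
Ptpn7: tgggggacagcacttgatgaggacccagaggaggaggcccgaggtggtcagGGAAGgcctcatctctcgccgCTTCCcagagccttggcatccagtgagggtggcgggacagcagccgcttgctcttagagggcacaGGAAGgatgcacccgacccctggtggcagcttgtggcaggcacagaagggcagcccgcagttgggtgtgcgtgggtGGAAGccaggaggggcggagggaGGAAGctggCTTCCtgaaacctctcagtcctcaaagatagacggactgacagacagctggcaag
The core was found 6 times, and the estrogen-related receptor and RUNX elements 0 times.

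Cd5 came next among the negative regulators. Its product is a surface receptor that dampens the T cell receptor and whose level follows signal strength, and it had 689, 686, 700.1, 695 and 682 CPM in WT 1 to WT 5 and 761, 744, 785 and 731 CPM in KO 1 to KO 4. The WT libraries were close together and all KO libraries stood above them. Cd5 averaged 691 ± 7.16 CPM in WT and 755 ± 23.3 CPM in KO (SD, n = 5 and 4), a log2 fold change of 0.13 ± 0.03 (SE, adjusted p = 0.0549), which missed the threshold narrowly, while DESeq2 gave an adjusted p of 0.000598. It was 0.14 without KO 1 and KO 4 (adjusted p = 0.0962), so its size did not rest on those libraries. Cd6, a related surface receptor whose gene lies 50339 bases from Cd5, was at 678 CPM in WT, 718 CPM in KO, log2 fold change 0.08 (adjusted p = 0.224).

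Dgka pointed the other way. Its product turns diacylglycerol into phosphatidic acid and so limits Ras activation, and it had 1581, 1383, 1537, 1578 and 1551 CPM in WT 1 to WT 5 and 1230.2, 1439, 1433 and 1255 CPM in KO 1 to KO 4. KO 1 and KO 4 were lowest, KO 2 and KO 3 lay above WT 2, and WT 2 stood below the other WT libraries. Dgka averaged 1526 ± 82.1 CPM in WT and 1339 ± 112 CPM in KO (SD, n = 5 and 4), with a log2 fold change of -0.19 ± 0.06 (SE, adjusted p = 0.0942). The value was -0.09 without KO 1 and KO 4 (adjusted p = 0.469), the libraries with the higher plasma cell and myeloid marker sums, whose part was not tested. DESeq2 gave an adjusted p of 0.0279 with all libraries, and edgeR 0.0341 without WT 2, at a log2 fold change of -0.22. Dgkz, the second diacylglycerol kinase, was at 901 CPM in WT, 866 CPM in KO, log2 fold change -0.06 (adjusted p = 0.459), and 0.01 without KO 1 and KO 4.

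The other negative regulators did not pass. Sla, an adaptor that lowers receptor levels, was at 346 CPM in WT, 391 CPM in KO, log2 fold change 0.18 (adjusted p = 0.136), and 0.08 without KO 1 and KO 4. Ptpn6, a phosphatase recruited by inhibitory receptors, was at 256 CPM in WT, 279 CPM in KO, log2 fold change 0.12 (adjusted p = 0.295), and 0.23 without them (adjusted p = 0.0522), so here the fold change was larger in their absence. Cblb, a ubiquitin ligase, was at 228 CPM in WT, 209 CPM in KO, log2 fold change -0.13 (adjusted p = 0.13). Csk, the kinase that inhibits Lck, was at 465 CPM in WT, 483 CPM in KO, log2 fold change 0.05 (adjusted p = 0.417). Ubash3a, which encodes a suppressor of receptor signalling, was at 176 CPM in WT, 168 CPM in KO, log2 fold change -0.06 (adjusted p = 0.339), and Ptpn22, a phosphatase of Lck and Zap70, at 265 CPM in WT, 264 CPM in KO, log2 fold change -0.01 (adjusted p = 0.945).

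The proximal kinases and adaptors were then set against the negative regulators within each library. For each, the mean log2 CPM of the 11 negative regulators was subtracted from that of the 8 kinase and adaptor genes. The difference was 0.130, 0.125, 0.128, 0.137 and 0.141 in WT 1 to WT 5 and 0.103, 0.106, 0.0961 and 0.0775 in KO 1 to KO 4. All KO libraries lay below all WT libraries, and KO 4 was lowest. The means were 0.132 ± 0.00645 in WT and 0.0956 ± 0.0127 in KO (SD, n = 5 and 4), a shift of -0.04 on the log2 scale. No p is given, since the genes were chosen with results of these data known. The kinases and adaptors averaged 8.86 in WT and 8.85 in KO, and the negative regulators 8.73 and 8.76, so each arm alone overlapped between the groups. The fold changes of the 8 genes had a median of 0.01, with 4 above and 4 below 0, and those of the 11 a median of 0.05, with Ptpn7 at 0.23 and Dgka at -0.19. The shift was -0.03 without KO 1 and KO 4. The shift exceeded the SD between libraries in either group, but the negative regulators include Ptpn7, which passed the threshold in these data. Ptpn7 alone was at 263 to 292 CPM in WT and 321 to 342 CPM in KO. The shift was not computed without Ptpn7, nor for other sets of genes. The separation of the groups in this difference is therefore not shown to hold without Ptpn7, and it is not shown to be a trait of the arms as a whole.

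**Figure D4:**
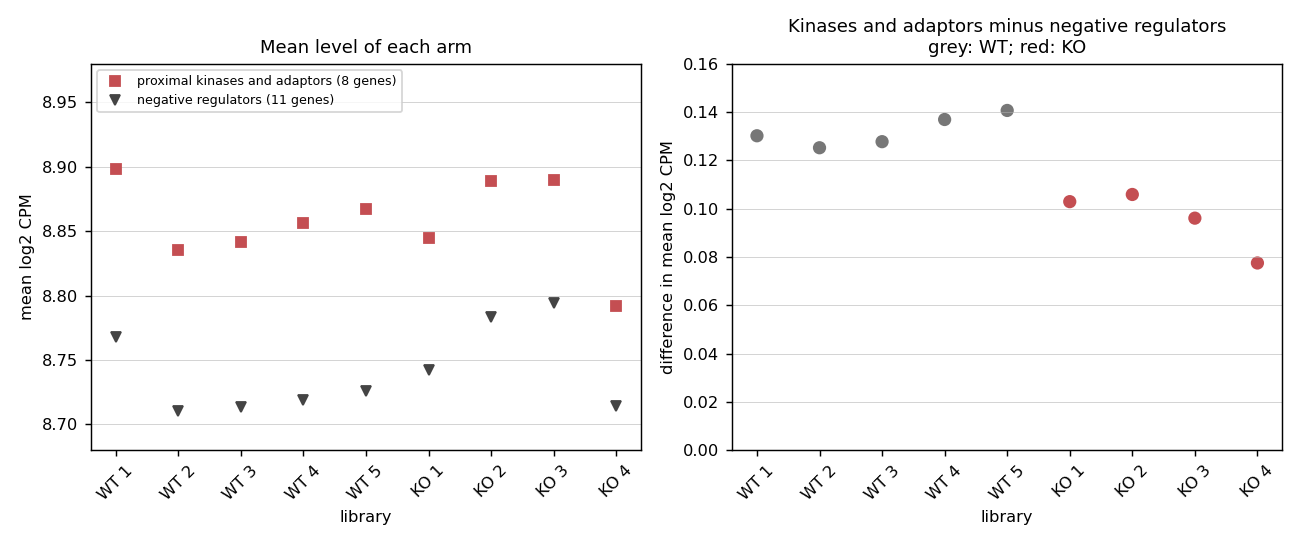
Mean log2 CPM of the 8 proximal kinase and adaptor genes and the 11 negative regulators in each library (left, axis not from 0), and the difference between these means (right). The differences lie between 0.125 and 0.141 in WT and between 0.0775 and 0.106 in KO, while the means themselves overlap between the groups. The 11 genes include Ptpn7, and the difference was not computed without it.

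**Figure D5:**
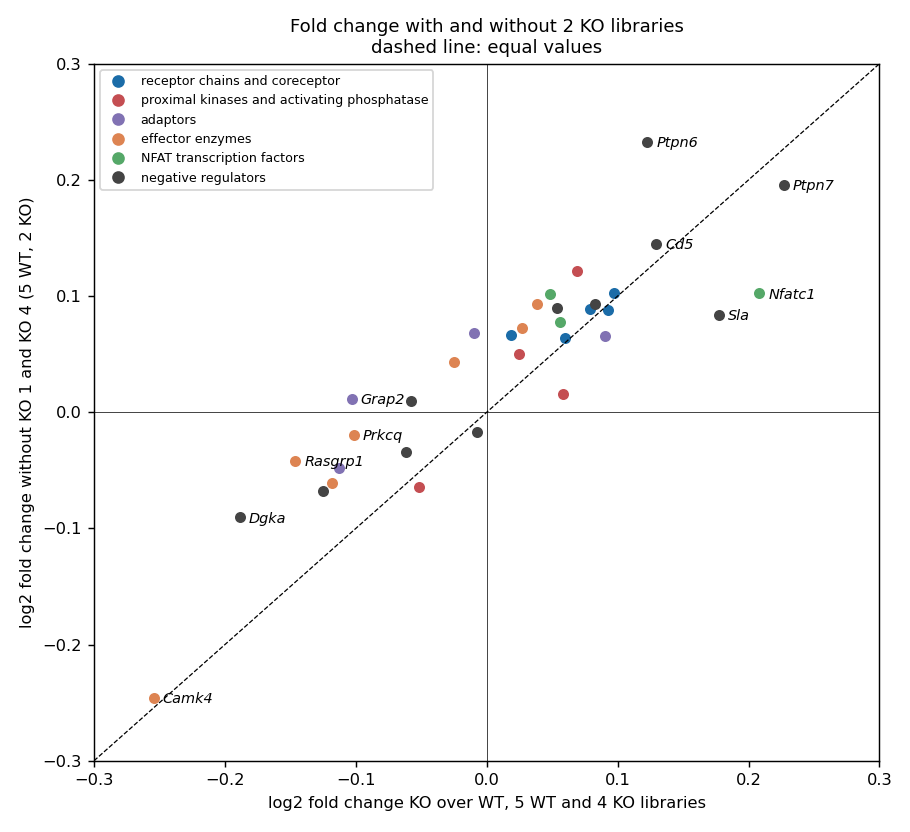
Log2 fold change of each of the 34 genes with all 9 libraries (horizontal) and without KO 1 and KO 4 (vertical), coloured by role, with a dashed line at equal values. Camk4 and Cd5 lie near the line, whereas Dgka, Rasgrp1, Nfatc1 and Sla lie nearer 0 on the vertical axis and Ptpn6 lies further from it.

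The rest of the pathway was read from 3 further lists. Of 45 other activating genes, 0 passed edgeR's test, and 14 had an unadjusted p under 0.05, 7 higher and 7 lower, where 21.6% of all genes did. DESeq2 passed 8 of the 45, 1 of which had no adjusted p, against 7.84% of all genes with one. With voom 0 passed, against 3.09% of all genes, and with voom and sample weights 4, against 6.41%. Their median log2 fold change was -0.03. The smallest p-values belonged to Itpr2, a calcium channel of the endoplasmic reticulum, at -0.17 ± 0.05 (SE, adjusted p = 0.058), and Stim2, a calcium store sensor, at -0.16 ± 0.04 (SE, adjusted p = 0.059). Trac and Trbc1 are named in addition, chosen after their values were seen, because they encode constant regions of the receptor itself. Trac (alpha chain) was at 756 to 824 CPM in WT and 855 to 903 CPM in KO, with a log2 fold change of 0.14 ± 0.04 (SE, adjusted p = 0.0598). Trbc1 (beta chain) was at 489 to 529 CPM in WT and 424 to 476 CPM in KO, with a log2 fold change of -0.15 ± 0.04 (SE, adjusted p = 0.0641). The near-identical copy Trbc2 was at -0.02, and reads may be split uncertainly between Trbc1 and Trbc2.

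Among 29 tested inhibitory genes, 1 passed, higher in KO, where 1.40% of all genes passed in that direction. It was Pdcd1, the inhibitory receptor PD-1, with 64.7, 79.5, 68.8, 71.4 and 80.6 CPM in WT 1 to WT 5 and 108, 87.5, 92.0 and 103 CPM in KO 1 to KO 4. All KO libraries exceeded all WT libraries, and the log2 fold change was 0.42 ± 0.08 (SE, adjusted p = 0.0204). The value was 0.30 without KO 1 and KO 4 (adjusted p = 0.132). The call was lost without WT 3 (adjusted p = 0.0637), WT 4 (0.0523) or KO 4 (0.0732). The median of the 29 was -0.04, and 0.01 without WT 1, the library of high Fos.

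Among 19 genes induced when the receptor is engaged, 2 passed, both higher in KO, against 1.40% of all genes higher and 3.28% in either direction. Icos, a costimulatory receptor, had 191, 198, 178, 182 and 172 CPM in WT 1 to WT 5 and 257, 202, 225 and 229.9 CPM in KO 1 to KO 4. Its groups did not overlap, though KO 2 was only slightly above WT 2, and the log2 fold change was 0.31 ± 0.06 (SE, adjusted p = 0.0231). Egr2, a transcription factor of the early growth response family, had 47.6, 56.7, 53.2, 51.4 and 58.8 CPM in WT 1 to WT 5 and 68.3, 59.3, 70.0 and 64.5 CPM in KO 1 to KO 4. KO 2 was again the closest to WT, and the log2 fold change was 0.29 ± 0.07 (SE, adjusted p = 0.0368). Without KO 1 and KO 4 the values were 0.21 for Icos (adjusted p = 0.132) and 0.27 for Egr2 (adjusted p = 0.203). The Icos call was lost without WT 3 (adjusted p = 0.078), WT 4 (0.0622), WT 5 (0.0674), KO 3 (0.055) or KO 4 (0.0769). The Egr2 call was lost without WT 1 (adjusted p = 0.0529), WT 3 (0.0966), WT 4 (0.0867), KO 1 (0.0802), KO 3 (0.092) or KO 4 (0.0947). Over the 19 genes 9 fold changes were above 0 and 10 below, with a median of -0.07, and 0.15 without WT 1, the library of high Fos.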

How the data were processed

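Each library was prepared from the total RNA of 1 mouse's sorted cells with a TruSeq kit that keeps strand, per the labels' protocols. Unnormalised counts for each gene symbol were deposited as a single table, and libraries summed to between 15269014 and 17425634 counts. STAR 2.7, DESeq2 and mm10 appear in the submitters' processing notes without a stated role. Not given in the sources used here are the counting program, its annotation and its strand setting. Of the 34 genes, 18 overlap another gene of the table, and reads of such pairs may be shared.

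Samples were grouped by title. The test was edgeR 4.0.16's quasi-likelihood test, run in R 4.3.3 with trimmed-mean scaling, robust dispersion and the default filter on low counts. P-values were adjusted over all 12738 tested genes by the Benjamini-Hochberg method, with a threshold of 0.05. The standard error is the size of the log2 fold change over the square root of F, and log2 CPM used a prior count of 2. In the test on simulated data 4.43% of calls were false. Lengths, positions and overlaps came from GENCODE M21 (GRCm38, the build also called mm10). Start windows (250 bases before to 50 after a start) came from RefSeq, which matched 28 of the 34 genes.

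The genes given library by library were every gene past the threshold and, in each of 6 roles, the 2 of smallest p and the one of highest mean CPM. Of the other lists, up to 4 called genes or else the 2 of smallest p were named. The members and lists were chosen with earlier results of these data known. Alternatives were other scalings and filters, DESeq2 1.42.0, limma 3.58.1 (voom with and without sample weights), replicate blocks, a threshold of 0.1 and leaving out each library. Leaving out KO 1 and KO 4, or these and WT 1, was added after seeing the data.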

Additional observations from a re-analysis of the deposited data

Results flagged for a closer look

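In 70 sets of 4 or 5 libraries (the CPM of each gene, and the difference between the arms, in WT and in KO), 3 held a library whose gap to its nearest neighbour was large against the whole range. Chance alone flags about 1 in 20 such sets, so 3 of 70 is no more than chance gives. Ptprc in WT stood out through WT 1, at 2884.47 CPM against 2662.70 to 2714.00 CPM in the other WT libraries. Ptprc in KO stood out through KO 3, at 2918.35 CPM against 2714.50 to 2738.97 CPM in the other KO libraries. Dgka in WT stood out through WT 2, which was low, at 1382.68 CPM against 1537.45 to 1580.99 CPM. Without WT 2, Dgka passed the threshold, lower in KO.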

How the results depend on the processing

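Of 21 alternatives, Ptpn7 passed the threshold in 18 and Camk4 in 15, with the same direction in all. The count of the 34 genes past the threshold, 2, was 5 with DESeq2, 5 at an adjusted p of 0.1 and 0 without KO 1 and KO 4. With WT 1 left out as well it was 3: Ptpn7 (edgeR adjusted p = 0.049), Camk4 (0.0324) and Ptpn6, which was higher in KO. Leaving out single libraries gave 0 to 3 (0 without KO 4, and 1 without each of WT 3, WT 4 and WT 5). The count of all genes, 418, was 919 with DESeq2, 817 with voom and sample weights, 981 at an adjusted p of 0.1, 118 without KO 1 and KO 4, 250 also without WT 1, and 97 to 697 without single libraries (lowest without WT 3, highest without WT 2). The other pathway genes, 1 past the threshold, gave 2 with upper-quartile scaling, 3 with library totals, 4 at a mean CPM of at least 5, 10 with DESeq2, 5 with voom and sample weights, 0 without KO 1 and KO 4 (with or without WT 1), and 0 to 3 without single libraries. The genes induced by receptor engagement, 2, gave 3 with DESeq2, 4 with voom and sample weights, 0 without KO 1 and KO 4 (with or without WT 1), and 0 to 4 without single libraries. The median log2 fold change of the 34 genes, 0.03, was 0.059 with voom and sample weights, 0.066 without KO 1 and KO 4, 0.0696 also without WT 1, and 0.016 to 0.052 without single libraries. The sign turned for Lat (0.068 without KO 1 and KO 4, 0.067 also without WT 1, -0.056 to 0.032 without single libraries, above 0 without KO 1) and for Ptprc (-0.00065 without KO 3, otherwise up to 0.046 without single libraries). Without KO 1 and KO 4 it also turned for Grap2 (-0.10 to 0.01), Vav1 (-0.02 to 0.04) and Dgkz (-0.06 to 0.01). The cause was not tested. The difference between the arms, -0.04, stayed between -0.04 and -0.03, with Ptpn7 included throughout. A library's scaling factor cancels in this difference, so the 3 other scalings could hardly move it. Under these scalings 34 of the 34 genes kept their sign. The largest shift of the median log2 fold change of all genes was only -0.0039, with upper-quartile scaling, so few signs could have turned. Samples sharing a replicate number were not paired: deviations from the group means correlated at 0.099, -0.0622, 0.1002 and -0.0669 for the title numbers and at 0.099, 0.0868, 0.0571 and -0.260 for the bracketed numbers, and 0 of 4 libraries correlated best with its own number. With a replicate block by title number, 26 of all genes, 0 of the 34, 0 of the other pathway genes and 0 of the induced genes passed. With a block by bracketed number, 456 of all genes, 5 of the 34, 1 of the other pathway genes and 3 of the induced genes passed. With 5 and 4 libraries, a change of 1.2-fold was recovered for 24% of 50 genes in the test on simulated counts at this depth. Those genes were drawn at random from the tested genes and not picked to match the 34. Other depths and group sizes were not run.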

Other observations

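Of the 34 genes, 4 lie on chromosome 1 with Esrrg. Cd247 is 21731514 bases from it, Ptprc 49433083, Ptpn7 52463474 and Zap70 150825973. Each of the 34 had 2 to 51 tested genes within 1 Mb, and 19 of the 34 had at least 1 of them past the threshold. In all, 31 of 762 such pairs held a neighbour past the threshold (4.07%, with genes near several of the 34 counted for each), against 3.28% of all tested genes. Ptpn7 had 3 such neighbours of 24 tested, all lower in KO where Ptpn7 was higher: Kif21b (log2 fold change -0.23, edgeR adjusted p = 0.0203), Lad1 (-0.30, 0.0441) and Tnnt2 (-0.93, 0.0204). Cd5 and Cd6 shared 1, Tmem109, at 0.31 (adjusted p = 0.0141), while Camk4 had 0 of 7. The neighbour of Fyn named E130307A14Rik was at -0.75 (adjusted p = 0.00079). The fold change of the 34 genes had a Spearman correlation of -0.23 with the length of the longest transcript, against -0.12 over 12143 tested genes. These points share their libraries and are not independent.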
